A study of Mus musculus with 23 samples.

Results

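The genes described here are Six2, Six4, Six5, Eya1, Eya2, Eya3, Eya4 and Dach1, 8 of the 20887 genes that could be named on the array. They were chosen from their families with the measured levels in the 8 groups in view, and stand for every probe whose RefSeq accession belongs to these symbols, which gave 10 probes, and all 8 genes were among the 16324 kept by a filter on dim probes. Six2, Six4 and Six5 are homeodomain transcription factors of the sine oculis family. Eya proteins are coactivators that these factors bring to DNA and that also carry a phosphatase domain, and Dach proteins are nuclear cofactors of the same complex, often repressive. The network is known for its work in the ear, the kidney, the muscle lineage and the placodes of the head, and loss of human EYA1 causes branchio-oto-renal syndrome.

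The arrays came from mice whose background strain is labelled B6/CL and which carry no labelled mutation or treatment. Whole lacrimal gland (LG, 2 arrays) and whole harderian gland (HG, 3 arrays) were taken at 7 weeks, and LG, HG and eyelid with its conjunctiva were separated into epithelium and mesenchyme at embryonic day 16.5 (E16.5, 3 arrays for each of 6 groups). The LG secretes the watery part of tears and grows as a bud of conjunctival epithelium into mesenchyme, whereas the HG of rodents secretes lipid behind the eye. The labels do not say whether replicates came from separate animals, so the p-values below speak of the spread among the arrays at hand, part of which may be technical.

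Levels are log2 of the background-subtracted signal minus the 75th percentile of the array, so 0 is the level of that percentile, and 1 unit is a 2-fold step. Probes differ in how brightly they shine for the same RNA, so levels are compared between groups for a probe and never between genes. An array had 42.4% to 64.6% of its spots well above background. In bulk RNA, fewer cells of a type and less RNA per cell cannot be told apart.

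The labels were checked against cell type markers. All 10 epithelial markers were higher in epithelium than in mesenchyme in LG, HG and eyelid, and all 10 mesenchymal markers were lower. The summed linear level of the mesenchymal markers was 102 to 141 in LG epithelium, 121 to 248 in HG epithelium and 176 to 254 in eyelid epithelium, against 1428 to 2144 in the mesenchyme groups. The eyelid mesenchyme held more epithelial signal than the other mesenchymes (91.6 to 220, against 5.10 to 22.3 in LG and HG mesenchyme). All 6 adult LG markers were well above background in adult LG and also in adult HG. Of 6 adult HG markers only Soat1 was not in adult HG, and only Elovl3 was not in adult LG, so detection did not separate these glands. The adult LG markers summed to 4793 to 6571 in adult LG, against 11.9 to 45.7 in adult HG. The adult HG markers summed to 553 to 1152 in adult HG, against 19.8 to 21.9 in adult LG.

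Promoter letters were read for 6 of the 8 genes from the RefSeq table of build GRCm38.p6, as the 250 bases before each start. Those of Six2, whose level ranged most widely of the genes here, run on the minus strand over chr17:85688255-85688504 and are given 5′ to 3′, with capitals for a CCAAT box that begins at position -87 (the base before the start is -1). A stretch of Six4 (minus strand, chr12:73113325-73113353) is given beside it because it held the only match, in any of these windows, to the letters TCAGGTT or GGTATCA, which sine oculis factors are known to bind.
Six2: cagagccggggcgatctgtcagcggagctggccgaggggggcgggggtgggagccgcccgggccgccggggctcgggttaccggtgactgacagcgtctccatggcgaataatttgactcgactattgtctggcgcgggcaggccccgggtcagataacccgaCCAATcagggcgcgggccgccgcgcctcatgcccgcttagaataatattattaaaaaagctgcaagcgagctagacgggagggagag
Six4: ggcctggggGAAACCTGAtcggccagatc
The capitals in Six4 begin at position -99 from 1 of its annotated starts, downstream of the other, and read TCAGGTTTC on the opposite strand, a longer form that contains TCAGGTT and was searched for after the shorter match was seen, as was CCAAT. On both strands of 32851 mouse promoter windows of this length, TCAGGTT was found in 3.49%, TCAGGTTTC in 0.387%, GGTATCA in 1.18% and CCAAT in 33.8%. These are matches of letters and are not evidence of binding.

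Six2, which in the mouse kidney keeps nephron progenitors from differentiating, had its highest levels in the lacrimal epithelium and the adult LG. Its brighter probe read 3.93 and 4.61 in adult LG, against -1.08, -1.71 and -3.34 in adult HG. At E16.5 it read 4.51, 4.37 and 4.65 in LG epithelium, against 0.10, 1.29 and 1.39 in HG epithelium and 2.98, 2.66 and 3.22 in eyelid epithelium. The mesenchymes ran in another order, with 0.05, -0.87 and -0.01 in LG mesenchyme, 2.37, 2.13 and 2.27 in HG mesenchyme and 0.97, 0.55 and 1.19 in eyelid mesenchyme. Of the neighbours in this order, LG epithelium overlapped adult LG and HG epithelium overlapped eyelid mesenchyme, and the other neighbouring groups did not overlap. The group means spanned 6.56 log2 units.

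**Figure D1:**
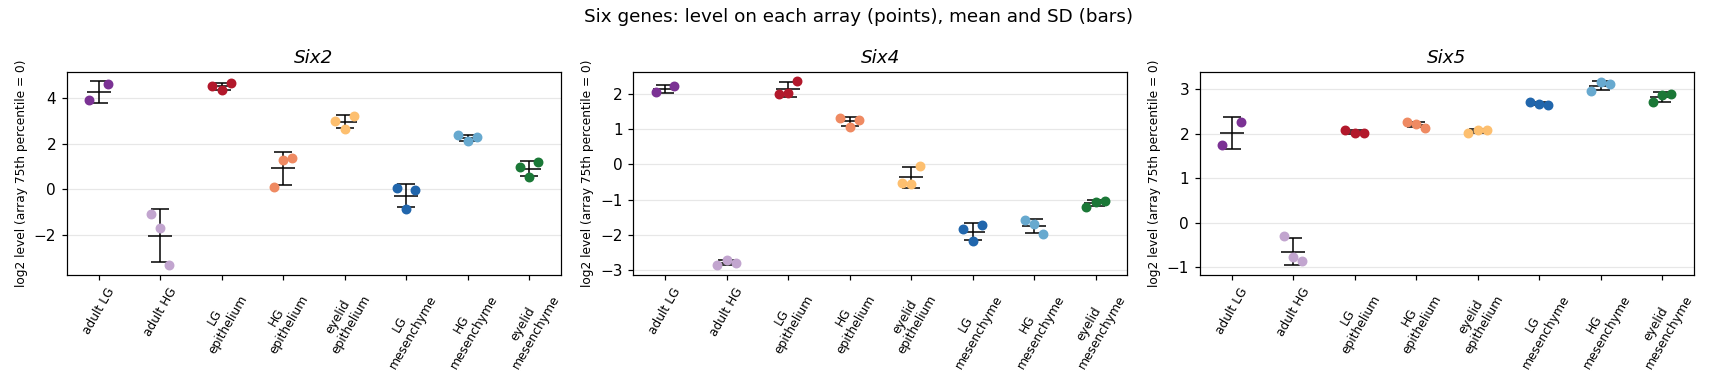
Log2 level of Six2, Six4 and Six5 (75th percentile of the array = 0) on each of 23 arrays in 8 groups; points are arrays, the horizontal mark is the mean and the bars are the SD. Six2 and Six4 sit high in adult LG and LG epithelium and lowest in adult HG, where Six5 is also lowest.

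The second Six2 probe was dimmer and followed the same pattern, with a Pearson r of 0.964 to the brighter probe over 23 arrays (a description, since all arrays share both probes). It was well above background on 15 of 23 arrays and on none of LG mesenchyme or adult HG. By that probe Six2 was at least 27.4-fold higher in LG epithelium than in LG mesenchyme, and at least 13.8-fold higher in adult LG than in adult HG, taking as the dim group's level the higher of its own reading and the array's lowest signal above background.

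**Figure D2:**
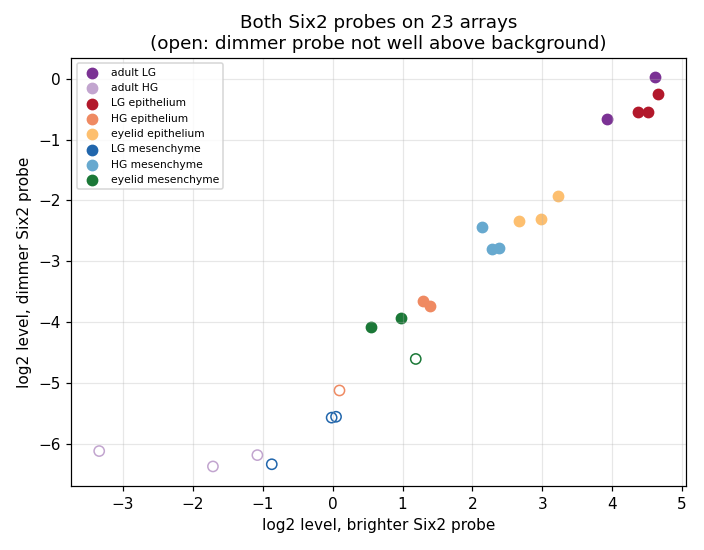
Log2 level of the dimmer Six2 probe (vertical) against the brighter one (horizontal), 1 point per array and 1 colour per group; open points mark arrays where the dimmer probe was not well above background. Adult LG and LG epithelium sit at the upper right with both probes, and adult HG and LG mesenchyme at the lower left.

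Six4, a relative of Six2 known from muscle and sensory ganglia, was also highest in lacrimal epithelium and adult LG, and it was higher in epithelium than in mesenchyme in every tissue. It read 2.06 and 2.22 in adult LG, against -2.87, -2.71 and -2.79 in adult HG. In the epithelia it read 2.0, 2.01 and 2.36 in LG, against 1.33, 1.07 and 1.26 in HG and -0.52, -0.56 and -0.04 in eyelid. No arrays of these epithelia overlapped. The mesenchymes read -1.83, -2.18 and -1.73 in LG, -1.58, -1.68 and -1.99 in HG and -1.21, -1.07 and -1.05 in eyelid, and only LG and HG mesenchyme overlapped. Over the 8 group means, the levels of Six2 and Six4 had a Pearson r of 0.799, a description over groups that share arrays.

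Six5, whose human gene lies beside the myotonic dystrophy repeat, was nearly flat across the embryonic epithelia and was low in 1 group. It read 1.76 and 2.27 in adult LG, against -0.30, -0.78 and -0.87 in adult HG. The embryonic epithelia lay between 2.02 and 2.26, and the mesenchymes lay between 2.66 and 3.17. Every mesenchyme array was above every epithelium array.

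Eya1, the family member tied to branchio-oto-renal syndrome, was bright on all arrays, from 4.30 to 6.08. Its means were 5.90 ± 0.26 in adult LG (SD, n = 2) against 4.75 ± 0.51 in adult HG (SD, n = 3), and 5.55 ± 0.10, 5.54 ± 0.18 and 5.46 ± 0.29 in LG, HG and eyelid epithelium (SD, n = 3 each). Adult LG and eyelid epithelium overlapped, as did eyelid epithelium and adult HG, while every embryonic epithelium array (5.24 or more) was above every mesenchyme array (5.04 or less). The readings of this probe ran almost in parallel with probes of other genes: 46 genes had a Pearson r of 0.95 or more with it over 23 arrays, against 0 to 2 for each of the other 7 genes, and the closest over the 8 group means was Cep170b (r = 0.999). Whether the probe measures Eya1 alone was not tested.

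Eya2 had the widest span of group means among the Eya genes with the main scaling, 3.70 log2 units. The span of Eya4 was close, at 3.53, and its adult LG readings were not well above background. Eya2 read 3.72 and 4.21 in adult LG, against 4.59 to 5.16 in the 3 adult HG arrays. In epithelium Eya2 read 4.91, 4.80 and 4.97 in LG, against 4.46, 4.21 and 4.58 in HG and 3.36, 2.84 and 3.72 in eyelid. In mesenchyme it read 1.29, 0.93 and 1.34 in LG, against 3.82, 3.79 and 3.90 in HG and 1.94, 1.69 and 2.31 in eyelid. LG thus held both the highest epithelial and the lowest mesenchymal readings of Eya2, and HG mesenchyme stood above the other 2 mesenchymes with no overlap.

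Eya3, which is widely expressed in mouse tissues, stayed between 2.81 and 3.89 on all 23 arrays, and its group means spanned 0.49. All its neighbouring groups overlapped, and its adjusted p was 0.166 to 0.947 over the 8 tested comparisons. It passed between LG and eyelid mesenchyme when only those groups were fitted (adjusted p = 0.0464).

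Eya4, known from inherited hearing loss and heart disease in humans, was dim in the embryonic epithelia, where HG epithelium replicate 1 was not well above background. It read -4.30 and -4.90 in adult LG, not well above background on either array, against -1.71, -0.70 and -0.89 in adult HG. The epithelia lay between -4.90 and -3.67. In mesenchyme it read -3.15, -3.22 and -4.15 in LG, against -1.63, -1.82 and -1.86 in HG and -1.51, -1.75 and -1.99 in eyelid, so adult HG, HG mesenchyme and eyelid mesenchyme were the groups in which it was brightest. With the main background subtraction, adult HG was at least 3.83-fold above adult LG. That bound did not hold with another background correction (normexp), where adult LG minus adult HG was -0.80 on the log2 scale.

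Dach1 had its lowest levels where Six2 and Six4 had their highest. It read -0.40 and 0.08 in adult LG, against 1.49, 0.66 and 1.04 in adult HG. The readings of LG epithelium were 0.78, 0.22 and 0.05, against 1.87, 1.36 and 1.48 in HG epithelium and 1.31, 1.29 and 1.70 in eyelid epithelium. The mesenchymes lay between 1.35 and 2.06. Adult LG and LG epithelium overlapped each other, and LG epithelium overlapped adult HG. A second Dach1 probe was dimmer and ran alongside (Pearson r = 0.900 over 23 arrays).

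**Figure D3:**
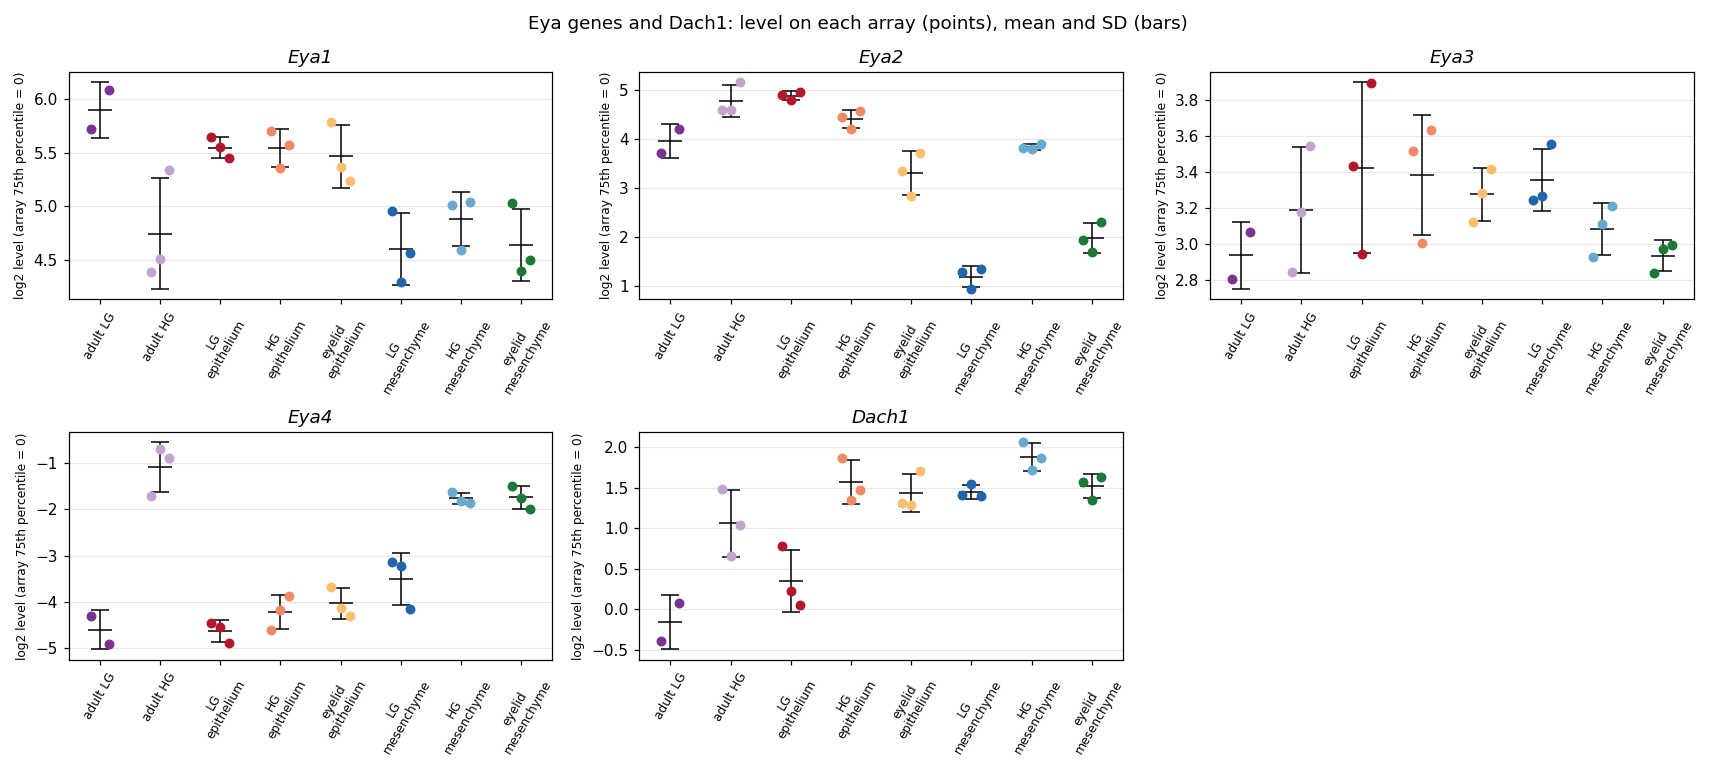
Log2 level of Eya1, Eya2, Eya3, Eya4 and Dach1 (75th percentile of the array = 0) on each of 23 arrays in 8 groups; points are arrays, the horizontal mark is the mean and the bars are the SD. Eya2 is lowest in LG mesenchyme, Eya4 is high only in adult HG, HG mesenchyme and eyelid mesenchyme, and Dach1 is lowest in adult LG and LG epithelium.

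For the 8 members, comparisons that use LG epithelium or adult LG are given as values with no test, because the genes were chosen with these levels known. The levels of the other groups were in view as well. The adjusted p-values of members in the comparisons that were tested are therefore not free of that choice. Between LG and HG epithelium, Six2 was 12.0-fold higher in LG and Dach1 was 2.32-fold lower, and these were the only members at least 2-fold apart, where 2.85% of all genes were higher and 4.65% lower (7.5% together). The within-slide differences were 4.41, 3.08 and 3.27 for Six2 and -1.09, -1.13 and -1.43 for Dach1. Six4 was 1.88-fold and Eya2 1.39-fold higher in LG without overlap. Between LG and eyelid epithelium, where 12.5% of genes were at least 2-fold higher and 13.9% lower (26.3% together), the log2 difference was 2.50 for Six4, 1.58 for Eya2, 1.56 for Six2 and -1.08 for Dach1, the 4 members past that fold. Melanocyte marker sums were 0.492 to 0.566 in LG epithelium, against 96.4 to 140 in eyelid epithelium, and their part was not tested.

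Between adult LG and adult HG, 17.8% of genes were at least 2-fold higher and 23% lower (40.7% together), and 6 of the 8 members were past that fold. Six2 was 79.4-fold, Six4 30.5-fold, Six5 6.33-fold and Eya1 2.22-fold higher in adult LG, while Eya4 (by the bound above) and Dach1 (2.33-fold) were lower. Eya2 was 1.77-fold lower with no overlap, and with quantile normalization its log2 difference was -0.40 in place of -0.82. Without adult HG replicate 3, which had the lowest Six2 reading, the Six2 fold was 50.7. With another background correction (normexp) the log2 difference was 5.19 in place of 6.31 for Six2 and 3.56 in place of 4.93 for Six4. For Eya4 the difference was -0.80 with normexp, less than 2-fold, and -4.71 with quantile normalization. The summed level of 10 skeletal muscle markers was 1.16 to 1.496 in adult LG, against 54.0, 5.39 and 1.43 in adult HG replicates 1 to 3. The 5 melanocyte markers summed to 0.545 to 0.938 in adult LG, against 33.97 to 46.2 in adult HG. The mesenchymal marker sums were 144 to 160 in adult LG against 302 to 620 in adult HG, and those of 6 neuron and Schwann markers 1.26 to 1.35 in adult LG against 10.3 to 12.0 in adult HG. The part of these cells in the differences was not tested. Adult LG and LG epithelium differed by less than 2-fold for all 8 members, where 26.7% of genes were at least 2-fold higher and 29.2% lower (55.9% together); a whole gland and a separated epithelium hold different cells. Eya2 differed most, by -0.92 on the log2 scale with no overlap, and the log2 difference of Six4 was 0.01. With normexp the values passed 2-fold for Eya2 (-1.23) and Eya4 (1.27), and with quantile normalization for Eya4 (-1.32), whose probe was not well above background in adult LG.

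**Figure D4:**
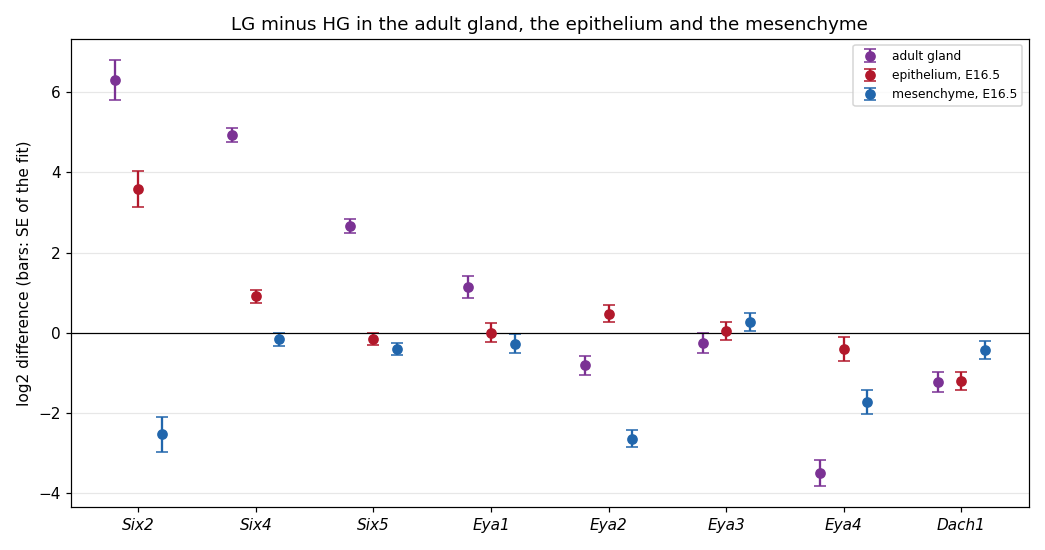
Log2 difference, LG minus HG, of the 8 genes in the adult gland, the E16.5 epithelium and the E16.5 mesenchyme; bars are the SE of the fit. Six2 is above 0 in the adult gland (6.31) and in epithelium (3.59) and below 0 in mesenchyme (-2.54). Eya4 was not well above background in adult LG, so its adult point rests on dim readings.

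Epithelium against mesenchyme asks in which compartment of each tissue a gene is higher. In LG, where the choice of genes used the epithelium, the values are again a description. Six2 was 27.7-fold, Six4 16.5-fold and Eya2 13.0-fold higher in LG epithelium than in LG mesenchyme, and Dach1 was 2.14-fold and Eya4 2.18-fold lower. These were 3 members at least 2-fold higher and 2 lower, where 16.8% of all genes were at least 2-fold higher and 20.2% lower (37% together). The log2 difference was 0.94 for Eya1, -0.64 for Six5 and 0.07 for Eya3, and within slides that of Six2 was 4.46, 5.24 and 4.67. No array of LG epithelium overlapped LG mesenchyme for any member but Eya3. The comparisons that follow were tested with limma across all 16324 genes, and a gene passed where its Benjamini-Hochberg adjusted p was under 0.05.

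In HG, 6 members passed (3 higher and 3 lower in epithelium), where 29.8% of genes were higher and 28.1% lower (57.9% together), and Six2 ran the other way. It fell in HG epithelium by 1.33 ± 0.44 (log2 difference ± SE, adjusted p = 0.0143), with within-slide differences of -2.28, -0.84 and -0.89. Without HG epithelium replicate 1 the fall was 0.92 and the call was lost (adjusted p = 0.0997). That replicate had the lowest Six2 reading of its group, and mesenchymal marker sums of 121, against 201 and 248 in the other HG epithelium arrays. The dimmer Six2 probe read lower too, with a difference of -1.50 (log2 SE 0.32, limma fit of all kept probes, adjusted p = 0.000568). On that probe HG epithelium replicate 1 was again the lowest of its group (-5.12) and was not well above background. Six4 rose by 2.97 ± 0.16 (adjusted p = 1.51e-10) and Eya4 fell by 2.45 ± 0.29 (adjusted p = 1.08e-06). Melanocyte marker sums were 1.26 to 4.21 in HG epithelium, against 79.8 to 109 in HG mesenchyme, and their part was not tested. Eya1 rose by 0.66 (adjusted p = 0.0278), a call lost without HG epithelium replicate 1 or 3 or HG mesenchyme replicate 2 (adjusted p 0.0646 to 0.123). Eya2 rose by 0.58 (adjusted p = 0.0312), a call that held only without HG epithelium replicate 2 among the 6 arrays left out in turn (adjusted p 0.0526 to 0.106 without the others).

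In eyelid, 6 members passed (4 higher and 2 lower in epithelium), where 25.7% of genes were higher and 25.5% lower (51.2% together). Six2 rose by 2.05 ± 0.44 (adjusted p = 0.000673), Eya2 by 1.33 ± 0.22 (adjusted p = 5.43e-05) and Six4 by 0.74 ± 0.16 (adjusted p = 0.000989). Eya4 fell by 2.29 ± 0.29 (adjusted p = 2.85e-06). Six5 fell by 0.76 and Eya1 rose by 0.82, the second of these lost without eyelid epithelium replicate 1 (adjusted p = 0.0544). In eyelid mesenchyme all 10 skeletal muscle markers were well above background, with a summed level of 169 to 234, against 1.71 to 5.06 in eyelid epithelium. Their part in the Eya4 difference was not tested. In HG mesenchyme the same sum was 4.77 to 14.5, and Eya4 differed between HG and eyelid mesenchyme by -0.02 ± 0.29 (adjusted p = 0.976).

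**Figure D5:**
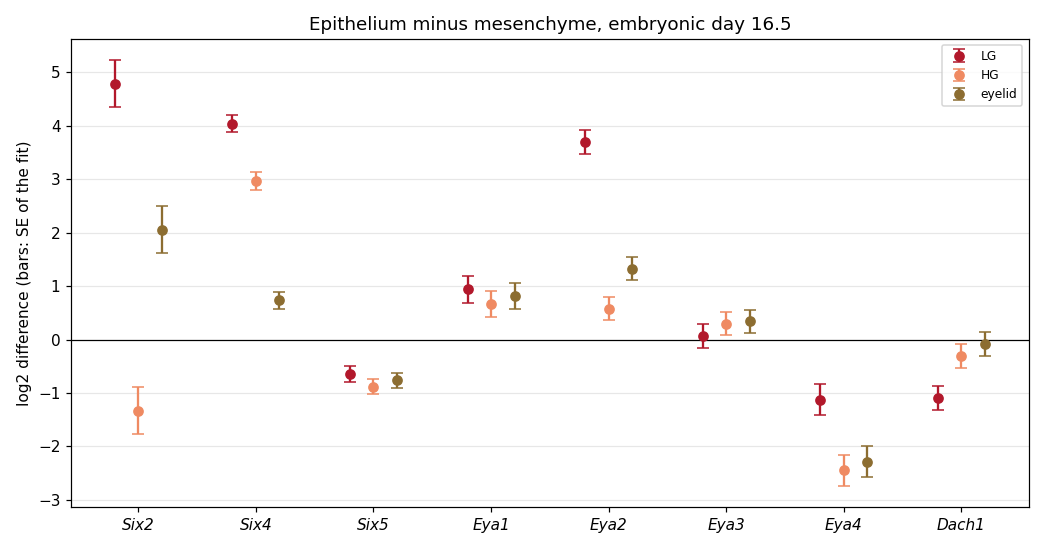
Log2 difference, epithelium minus mesenchyme, of the 8 genes in LG, HG and eyelid at E16.5; bars are the SE of the fit. Six2 lies above 0 in LG (4.79) and eyelid (2.05) and below 0 in HG (-1.33), whereas Six4 lies above 0 and Eya4 below 0 in all 3 tissues.

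The difference between HG and eyelid in this contrast was itself tested. It was called for 2 members, where 19.5% of genes were called higher and 16.9% lower (36.4% together). The epithelium-minus-mesenchyme difference of Six2 differed by -3.39 log2 units, HG minus eyelid (SE 0.62, adjusted p = 0.000329), and that of Six4 by 2.23 (SE 0.23, adjusted p = 7.99e-07). Within slides the values were -4.28, -2.95 and -2.92 for Six2 and 2.22, 2.25 and 2.24 for Six4. Epithelial marker sums were 91.6 to 220 in eyelid mesenchyme, against 5.10 to 22.3 in HG mesenchyme. The skeletal muscle sums were 169 to 234 against 4.77 to 14.5. The part of these cells in the 2 differences was not tested. The Eya2 value, -0.75, did not pass (adjusted p = 0.0709). It passed with the replicate number (adjusted p = 0.0181) or the slide (0.00424) as a block, with median scaling (0.0226) or quantile normalization (0.00930), and without eyelid epithelium replicate 2 (0.0174) or eyelid mesenchyme replicate 3 (0.0368). Between the epithelia themselves, HG against eyelid, 3 members passed, where 26.6% of genes were higher and 18% lower (44.6% together). Six4 was higher in HG by 1.59 ± 0.16 (adjusted p = 3.18e-07) and Eya2 by 1.11 ± 0.22 (adjusted p = 0.000463), while Six2 fell by 2.03 ± 0.44 (adjusted p = 0.000962). Melanocyte markers differed here too, with sums of 1.26 to 4.21 in HG epithelium against 96.4 to 140 in eyelid epithelium, and their part in the result was not tested.

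Between mesenchymes, every member that passed against LG mesenchyme was lower in LG. Against HG mesenchyme 3 members passed, all lower in LG, where 6.46% of genes were higher and 7.85% lower (14.3% together). Eya2 fell by 2.65 ± 0.22 (adjusted p = 1.48e-07), Six2 by 2.54 ± 0.44 (adjusted p = 0.000463) and Eya4 by 1.74 ± 0.29 (adjusted p = 0.000382). Within slides the Eya2 difference was -2.53, -2.85 and -2.55 and that of Six2 ran from -2.29 to -3.001. Epithelial marker sums were 6.99 to 15.8 in LG mesenchyme and 5.10 to 22.3 in HG mesenchyme. Melanocyte marker sums were 2.92 to 3.31 in LG mesenchyme, against 79.8 to 109 in HG mesenchyme, and their part was not tested.

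Against eyelid mesenchyme 4 members passed, all lower in LG, where 15.5% of genes were higher and 15.7% lower (31.2% together). Eya4 fell by 1.76 ± 0.29 (adjusted p = 0.000156), Six4 by 0.81 ± 0.16 (adjusted p = 0.000945), and Eya2 by 0.79 ± 0.22 (adjusted p = 0.0105). The Six2 difference, -1.18 ± 0.44, was just past the threshold (adjusted p = 0.0485). It was not past it with the replicate block (adjusted p = 0.0562), with no filter on dim probes (adjusted p = 0.0616) or with any 1 of the 6 arrays left out (adjusted p 0.0523 to 0.200). By the dimmer Six2 probe the difference was -1.62 (limma fit of all kept probes, adjusted p = 0.000793). That probe was above background on no LG mesenchyme array, so this value rests on dim readings. Its bound was at least 2.04-fold, and eyelid mesenchyme replicate 3 was not well above background either. The Eya2 call was lost without LG mesenchyme replicate 2 (adjusted p = 0.0578) or eyelid mesenchyme replicate 3 (adjusted p = 0.0673). Between HG and eyelid mesenchyme 3 members passed, where 11.1% of genes were higher and 11.3% lower (22.4% together). Eya2 was 1.86 ± 0.22 higher in HG (adjusted p = 5.24e-06), and Six2 was 1.35 ± 0.44 higher (adjusted p = 0.0328). The Six2 call was lost with median scaling (adjusted p = 0.0513) or when any of 5 of the 6 arrays was left out (adjusted p 0.0628 to 0.120). By the dimmer Six2 probe, with eyelid mesenchyme replicate 3 not well above background, the difference was 1.53 (limma fit of all kept probes, adjusted p = 0.00171). Six4 fell by 0.64 ± 0.16 (adjusted p = 0.00767), a call lost without HG mesenchyme replicate 3 (adjusted p = 0.0562). In LG mesenchyme the melanocyte marker sums were 2.92 to 3.31 and the skeletal muscle sums 1.14 to 1.41, against 68.4 to 79.2 and 169 to 234 in eyelid mesenchyme, whose epithelial sums were 91.6 to 220. Their part in these differences was not tested.

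Between the adult HG and the HG epithelium of the embryo, 5 members passed (1 higher and 4 lower in adult HG), where 34.4% of genes were higher and 35.6% lower (70% together). Six4 fell by 4.01 ± 0.16 (adjusted p = 2.04e-13), Six2 by 2.97 ± 0.44 (adjusted p = 8.01e-06) and Six5 by 2.86 ± 0.15 (adjusted p = 4.77e-12). Eya1 fell by 0.80 ± 0.25 (adjusted p = 0.00768), a call lost when only the groups compared were fitted (adjusted p = 0.0515). Eya4 rose by 3.12 ± 0.29 (adjusted p = 2.42e-08), and without each array in turn the rise was 2.92 to 3.43. The Six2 difference ranged within slides from -1.17 to -4.73. The dimmer Six2 probe was above background on no adult HG array and gave no bound for this fall. Eya2, higher in adult HG by 0.37, did not pass (adjusted p = 0.144) but did with the slide as a block (adjusted p = 0.0191). Dach1 fell short of the threshold (-0.51 ± 0.22, adjusted p = 0.0502) and passed without adult HG replicate 1 (adjusted p = 0.00896) or HG epithelium replicate 2 (0.0379). It also passed with median scaling (0.0471), quantile normalization (0.0458), normexp (0.0275), a filter in at least 2 groups (0.0481), the authors' value table (0.0493), the slide block (0.0195) and the replicate block (0.0397). The mesenchymal marker sums were 302 to 620 in adult HG against 121 to 248 in HG epithelium, and the melanocyte marker sums were 33.97 to 46.2 in adult HG against 1.26 to 4.21 in HG epithelium. Their part in the differences was not tested.

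The wider network was described through lists of genes known to work with sine oculis and Eya proteins. List genes are counted as higher or lower, in LG too, where their adjusted p was under 0.05. The lists were chosen with earlier results of these data known, so their counts and p-values are not free of that choice. Of 25 partner genes (Pax, Sall, Tle, Tshz and related factors), 19 were kept. In LG 6 were higher and 6 lower in epithelium than in mesenchyme (median log2 difference 0.09, against 0.11 over all genes), in HG 3 and 10 (-0.74, against 0.03), and in eyelid 5 and 10 (-0.47, against 0.05). Of all genes, 32.1% passed as higher and 26.5% as lower in LG, 29.8% and 28.1% in HG, and 25.7% and 25.5% in eyelid. Pax6, the eye field and ocular gland regulator, was higher in the epithelium of LG by 5.61 ± 0.47. It was also higher in that of HG by 5.17 ± 0.47 (adjusted p = 3.16e-08, above background on 2 of 3 HG mesenchyme arrays). In eyelid the rise was 3.12 ± 0.47 (adjusted p = 1.65e-05). Tshz2, a zinc-finger factor, was lower in LG epithelium by 9.04-fold and in eyelid epithelium by 7.07-fold. The corepressor Tle3 rose 3.44-fold and its relative Tle2 fell 3.64-fold in HG epithelium. Between LG and HG mesenchyme 2 partners were higher and 6 lower (6.46% and 7.85% of all genes), with Pax3, a regulator of muscle and pigment cell precursors, 28.8-fold lower in LG (adjusted p = 1.62e-09), in the comparison where melanocyte markers were also lower. Between adult HG and HG epithelium 3 were higher and 10 lower (34.4% and 35.6% of all genes), with Sall2 lower by 16.1-fold (adjusted p = 8.22e-13).

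In the kidney, Eya1 and Six2 act in nephron progenitors with other factors. Of 15 such genes besides them, 10 were kept, and Hoxa11, Hoxc11, Hoxd11, Pax2 and Sall1 did not pass the filter in any group. In LG 0 of the 10 were higher and 6 were lower in epithelium than in mesenchyme, with a median log2 difference of -2.04 against 0.11 over all genes, of which 58.6% passed in either direction. Osr1, a factor of early kidney mesenchyme, was lower by 27.2-fold, Meox1 by 14.6-fold and the progenitor marker Cited1 by 9.21-fold. In HG 3 were higher and 4 lower (57.9% of all genes in either direction). Wnt4, which drives progenitors into tubules, was 12.2-fold higher in HG epithelium, and Wt1 was at least 5.58-fold higher. In eyelid 4 were higher and 6 lower (51.2% of all genes in either direction), with Meox1 lower by 41.7-fold and the integrin Itga8 by 25.7-fold. Itga8 was 55.3-fold higher in HG than in eyelid epithelium (adjusted p = 1.07e-12).

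Of 21 genes reported downstream of sine oculis or Eya proteins in muscle, ear or kidney, 16 were kept. In LG 3 were higher and 3 lower in epithelium (median log2 difference -0.14, against 0.11 over all genes), in HG 4 and 6 (-0.48, against 0.03), and in eyelid 3 and 10 (-1.51, against 0.05). Over all genes 58.6%, 57.9% and 51.2% passed in these 3 tissues. Ezr, which links membranes to actin, was 18.4-fold higher in LG epithelium, and Fgf10, the mesenchymal growth factor of gland budding, was 55.4-fold lower there. Fgf10 is also among the mesenchymal markers against which the labels were checked. The muscle regulator Myog was 55.8-fold lower in eyelid epithelium than in eyelid mesenchyme, and at least 298-fold lower in LG mesenchyme than in eyelid mesenchyme; Myog is also among the skeletal muscle markers given above. The cell cycle gene Ccnd1 was 11.2-fold higher in HG epithelium than in eyelid epithelium and 11.3-fold lower in adult HG than in HG epithelium. Direction within the list differed from gene to gene, since Osr1 and Cited1 fell where Ezr rose.

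The genes whose levels over the 8 group means ran most like each member were taken by Pearson r, again as a description over groups that share arrays and scaling. For Six2 these were Pif1 (r = 0.938), Trim62 (0.925) and Cdk17 (0.918). Six4 ran most like Zfp12 (0.982), Abce1 (0.981) and Arhgap26 (0.975), and Six5 like Ttc26 (0.982), Epm2aip1 (0.981) and Tmem165 (0.972). After Cep170b, Eya1 ran like Neurl1b (0.999) and Kcna4 (0.999). Eya2 ran like Olfr1384 (0.941), Btbd6 (0.922) and Ngrn (0.921), and Eya3 like Ncoa6 (0.993), Foxred1 (0.983) and D330050I16Rik (0.970). Eya4 ran like Myoz1 (0.980), Scand1 (0.977) and Cox20 (0.962), and Dach1 like the endothelin receptor gene Ednrb (0.948), Gnpda2 (0.944) and Nsun6 (0.933). These are the highest r among 16323 other genes over only 8 points. Over the 23 arrays every one of them was lower, from 0.506 (D330050I16Rik with Eya3) to 0.995 (Cep170b with Eya1). There Cdk17 had 0.585 with Six2, Btbd6 0.663 with Eya2 and Ncoa6 0.735 with Eya3.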

How the data were processed

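The study hybridised Cy3-labelled cRNA of 23 samples to 1-colour Agilent mouse arrays on 3 slides, grouped as GEO's labels give. Per the file headers, the deposited scanner output holds, for each spot, a linear intensity from which the scanner software had taken the background, beside other columns of 0 or 1 flags. Feature Extraction 11.5.1.1 is named in the submitters' processing notes, and the headers of slide 1 name version 11.0.1.1. The deposited value table is also intensity, not log2, and its median log2 ratio to the scanner values was 0 on every array. The design build in the headers is mm9, so no coordinates from other tables are given except those of the printed promoter letters.

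Outlier spots were left out, spots of a probe averaged, and log2 levels taken relative to the 75th percentile of each array (139 to 857 intensity units, lowest on the adult LG arrays; the number of arrays limits the precision). Probes were named through RefSeq accessions (27509 of 55681), and kept when, in 1 or more groups, each array had a share of 0.5 or more of the probe's spots well above background. The brightest kept probe stood for its gene. All groups entered 1 limma fit (3.58.1, R 4.3.3), two-sided, with Benjamini-Hochberg adjustment over 16324 genes and a threshold of 0.05. The fit was tested on simulated data. A test of LG epithelium against LG mesenchyme was planned for the members, but is not given because their choice used those levels. A bound was taken where no array of a group was well above background.

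Named genes were all members, up to 4 called genes per list and comparison with the largest differences, and the 3 genes most alike to each member. A further partner gene is counted and not reported here. The members and lists were chosen with earlier results of these data known. Slide equals replicate number in the embryonic groups, whose same-numbered arrays deviated together (residual r 0.171 to 0.578 in every pair). A shared slide and a pairing of samples cannot be told apart there, and no label names a pairing. The main fit had no term for slide or replicate number. In comparisons with adult glands the lowest r was -0.340, so same-numbered arrays did not deviate together in every pair. Alternatives changed the scaling, background correction, filter, probes, values, samples in the fit, blocks and replicates. The mean spot signal named for the normexp alternative was not a column, so the median was used. Figures used matplotlib 3.10.9.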

Additional observations from a re-analysis of the deposited data

Results flagged for a closer look

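The contrast of epithelium against mesenchyme differed between HG and eyelid for Six2 (-3.39 log2 units) and Six4 (2.23), by the test of the difference itself. The remaining differences were not tested, and were picked out because every array of a group lay on opposite sides in the 2 settings. Six2 was higher in epithelium than in mesenchyme in LG (4.79) and lower in HG (-1.33). LG minus HG was positive for Six2 in epithelium (3.59) and in the adult gland (6.31) and negative in mesenchyme (-2.54). For Eya2 the same difference was 0.47 in epithelium, -2.65 in mesenchyme and -0.82 in the adult gland. For Six5 it was -0.16 in epithelium, -0.40 in mesenchyme and 2.66 in the adult gland. LG minus eyelid was positive in epithelium and negative in mesenchyme for Six2 (1.56 and -1.18), Six4 (2.50 and -0.81) and Eya2 (1.58 and -0.79). The adult gland minus the embryonic epithelium was 0.35 for Eya1 in LG against -0.80 in HG, and -0.92 for Eya2 in LG against 0.37 in HG. With normexp the values in LG were 0.03 for Eya1 and -1.23 for Eya2. With quantile normalization that of Eya2 in LG was -0.66, and its LG minus HG value in the adult gland was -0.40. The Eya1 call in HG was lost when only the groups compared were fitted (adjusted p = 0.0515).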

How the results depend on the processing

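Of the recomputed member differences 1734 kept their side of the threshold (or stayed within 1 SD where untested). A call was lost in 28 and gained in 19, and 19 untested ones moved. None that was called turned its direction. Differences that were not called could turn theirs within the 1734. Eya1 in HG against eyelid epithelium did so (-0.03 to 0.24 with 1 array left out). In HG epithelium against mesenchyme 6 members passed, and 3 to 6 did with 1 array left out (3 without HG epithelium replicate 1). In LG against eyelid mesenchyme 4 passed, and 2 to 3 did with 1 array left out. In HG against eyelid mesenchyme 3 passed, and 1 to 3 did, with 1 passing without HG mesenchyme replicate 3. In LG against HG mesenchyme 3 passed, and 5 did when only those groups were fitted; the count over all genes was then 4313, against 2336. The cause was not tested. Between adult LG and LG epithelium 0 members were at least 2-fold apart, but 1 with quantile normalization, 2 with normexp, and 0 to 1 with 1 array left out. With normexp the counts over all genes at least 2-fold apart were 507 in place of 1224 for LG against HG epithelium, and 4405 in place of 6649 for adult LG against adult HG. With the replicate number as a block the Six2 call between LG and eyelid mesenchyme was lost (adjusted p = 0.0562). The Eya2 difference of HG against eyelid passed (adjusted p = 0.0181). Dach1 in adult HG passed too (adjusted p = 0.0397), where same-numbered arrays did not deviate together in every pair. The block changed no other call of a member. Scaling moved the median of all genes by up to 0.16 (median), 0.12 (quantile) and 0.25 (normexp). Low signals, such as Eya4 in adult LG, are known least well.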
